A study of Mus musculus with 2 samples.

Results

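Genes that can start their transcripts at more than 1 place were described in bone marrow eosinophils, by how their reads were divided among the starts. The deposited tables list, for every gene, RefSeq transcripts grouped into rows that share a start and an end. A gene was taken when its symbol held no comma, all its rows lay on 1 chromosome and strand, its farthest 5′ ends were 1000 to 500000 bases apart, and its rows summed to at least 100 reads in each of both libraries. Of 23205 symbols, 1916 had several rows on 1 chromosome and strand, 1115 of these had starts at that distance, and 439 also had the reads. The genes were thus chosen by their read totals, so these totals are no finding, and the division of reads among rows is given below as a description. These 439 genes held 1056 of the 26099 rows, 312 genes with 2 rows, 92 with 3, 27 with 4, 5 with 5, 2 with 6, and Plec with 11.

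Poly(A) RNA was sequenced from eosinophils (CCR3+, SiglecF+) of naive C57BL6J mice, sorted from marrow pooled over animals at homeostasis, in 2 independent sorts called sort 1 and sort 2. Both libraries form 1 group without treatment, so the only comparison the design gives is between the sorts, 1 library each. The number of animals in a pool is not stated.

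A gene with several promoters can produce transcripts that differ in their first exon, and often also in the start of the encoded protein. Which promoter is used differs between tissues, and many genes of blood cells have a promoter used mainly in that lineage. RNA-seq reads cover the whole transcript, and only reads over exons that the transcripts do not share tell the starts apart. A counting program therefore has to divide the remaining reads among the rows. Among the 439 genes, 377 (85.9%) had a common 3′ end on all rows, and in the others the rows differed at the 3′ end too, so that their shares do not speak of starts alone.

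The starts of 6 genes are shown here because the results below turn on them. Syk and Lcp1 had reads mainly on the upstream row, and Tpm3 and Rassf1 only on the downstream row. In Shc1 the division differed between the sorts, and Gfi1 had the same count on both rows in sort 1. Each line gives 80 bases before the start and 20 from it, 5′ to 3′ on the strand of the gene, from the RefSeq promoter table of build GRCm38.p6, with CpG dinucleotides in capitals.
Syk, upstream start, chr13:52583357-52583456, plus strand: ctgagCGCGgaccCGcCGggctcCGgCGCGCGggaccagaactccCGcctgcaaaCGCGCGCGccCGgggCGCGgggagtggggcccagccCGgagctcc
Syk, downstream start, chr13:52596802-52596901, plus strand: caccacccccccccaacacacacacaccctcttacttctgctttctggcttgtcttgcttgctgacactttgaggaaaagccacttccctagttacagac
Lcp1, upstream start, chr14:75131043-75131142, plus strand: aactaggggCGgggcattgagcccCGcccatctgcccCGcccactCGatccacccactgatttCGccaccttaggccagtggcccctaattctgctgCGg
Lcp1, downstream start, chr14:75136345-75136444, plus strand: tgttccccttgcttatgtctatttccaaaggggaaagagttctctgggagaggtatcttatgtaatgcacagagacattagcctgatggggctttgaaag
Tpm3, upstream start, chr3:90072571-90072670, plus strand: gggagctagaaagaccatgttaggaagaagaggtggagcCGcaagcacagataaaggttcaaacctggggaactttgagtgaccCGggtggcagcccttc
Tpm3, downstream start, chr3:90079441-90079540, plus strand: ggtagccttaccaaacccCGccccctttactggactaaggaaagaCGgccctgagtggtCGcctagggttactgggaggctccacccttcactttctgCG
Rassf1, upstream start, chr9:107551475-107551574, plus strand: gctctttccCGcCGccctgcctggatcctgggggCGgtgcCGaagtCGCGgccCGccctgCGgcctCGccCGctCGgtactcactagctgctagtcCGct
Rassf1, downstream start, chr9:107554503-107554602, plus strand: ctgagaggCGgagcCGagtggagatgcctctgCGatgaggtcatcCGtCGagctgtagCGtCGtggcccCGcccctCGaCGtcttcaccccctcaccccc
Shc1, upstream start, chr3:89418471-89418570, plus strand: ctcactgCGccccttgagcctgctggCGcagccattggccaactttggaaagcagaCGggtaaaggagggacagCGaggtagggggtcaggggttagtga
Shc1, downstream start, chr3:89421541-89421640, plus strand: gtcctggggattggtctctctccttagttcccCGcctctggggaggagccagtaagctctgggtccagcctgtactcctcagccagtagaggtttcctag
Gfi1, upstream start, chr5:107725786-107725885, minus strand: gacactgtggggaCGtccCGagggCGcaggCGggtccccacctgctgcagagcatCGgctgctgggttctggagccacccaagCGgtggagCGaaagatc
Gfi1, downstream start, chr5:107724324-107724423, minus strand: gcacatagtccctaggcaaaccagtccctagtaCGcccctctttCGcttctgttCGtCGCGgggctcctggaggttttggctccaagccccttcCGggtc
The upstream start of Syk had 17 CpG dinucleotides in these 100 bases and the downstream start had 0. Lcp1 had 6 upstream and 0 downstream, and Tpm3 had 2 upstream and 4 downstream. Rassf1 had 12 and 10, Shc1 had 4 and 1, and Gfi1 had 7 and 6, each upstream before downstream.

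The tables summed to 10087743 reads in sort 1 and 9264150 in sort 2, and the 439 genes held 788034 (7.81%) and 774781 (8.36%) of them. The ribosomal RNA precursor Rn45s took 914623 reads (9.07%) in sort 1 and 89209 (0.963%) in sort 2, and without it the 439 genes held 8.59% and 8.44%. Their median total was 724 reads in sort 1 and 676 in sort 2, with ranges of 102 to 58955 and 100 to 65214. The median distance between the farthest starts was 16896 bases (quartiles 4618 and 48556.5). All 9 eosinophil markers were detected, with a median RPKM (reads scaled by transcript length and by depth) of 114 in sort 1 and 118 in sort 2. All 9 neutrophil markers were detected too, with medians of 161 and 173. The 7 lists of other marrow cells had medians of 0.0351 to 4.40 in sort 1 and 0.0647 to 4.98 in sort 2, and 12 of their 30 genes reached 1 RPKM in both. No marker in any list was at 0 reads in total. Sort 1 held 47487 reads of Xist, which only cells with an inactive X chromosome make in number, against 5 for sort 2, so the pools did not hold the same animals and differed in their make-up by sex. Sex and sort cannot be told apart here, and the part of other cells and of Rn45s in the shares below was not tested.

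Neither end of the gene prevailed. The leading row, the row with most reads over both sorts, was the most upstream in 189 genes (43.1%) and the most downstream in 199 (45.3%). It lay between them in 40 (9.11%), and 11 (2.51%) had a tie. Over all 771 genes with several rows and at least 100 reads in both tables, the upstream row led in 336 (43.6%) and the downstream row in 353 (45.8%), which are shares close to those of the 439. In the 312 genes with 2 rows, 147 (47.1%) were led from upstream, 158 (50.6%) from downstream and 7 were tied.

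By definition the leading row has most reads over both sorts. In the 312 genes with 2 rows it thus cannot hold the smaller part of them. The leading row held a median of 87.6% of the gene's reads in sort 1 (quartiles 65.7 and 100) and 85.9% in sort 2 (61.4 and 99.5). In 145 genes (33.0%) it held at least 90% in both sorts, against 247 of the 771 (32.0%). In 60 genes (13.7%) it held 100% in both, against 126 of the 771 (16.3%). In 96 (21.9%) it held less than 75% in both, against 183 of the 771 (23.7%). The most upstream row had at least 90% of the reads in both sorts in 55 genes (12.5%) and at most 10% in 115 (26.2%). In 148 genes (33.7%) it lay between those bounds in both sorts.

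**Figure D1:**
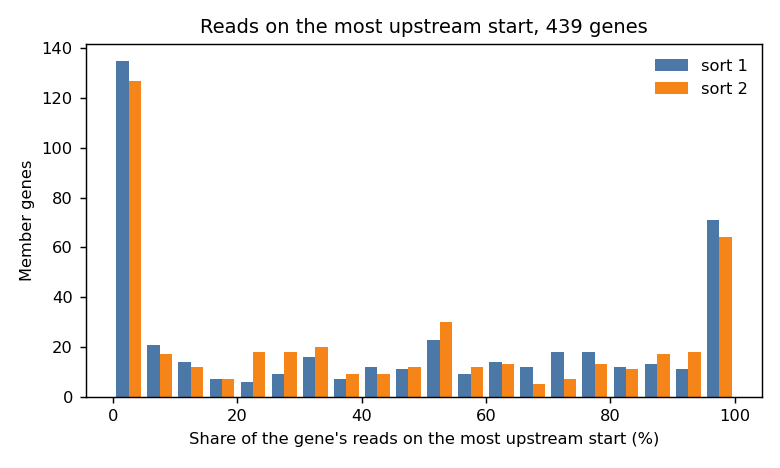
Number of genes (y axis) by the percent of the gene's reads on the most upstream row (x axis, bins of 5 points), with 1 bar for each sort. The bars are highest at the ends of the axis: in 115 genes the share was at most 10% in both sorts, and in 55 it was at least 90%.

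Several genes for signalling and the cytoskeleton were led from upstream. Syk (chromosome 13, 52583437 to 52648792, plus strand, mm10), a tyrosine kinase that works downstream of immune receptors, had 7565 reads in sort 1 and 6053 in sort 2 on its upstream row. The row 13445 bases downstream had 104 and 290. The upstream row thus held 98.6% (95% Wilson interval 98.4 to 98.9) and 95.4% (94.9 to 95.9). Both sorts placed Syk almost wholly on the CpG-rich start printed above. Lcp1 (chromosome 14, 75131123 to 75230842, plus strand), which encodes the actin-bundling protein L-plastin of white blood cells, had 29026 and 31077 reads on the upstream row and 3783 and 2840 on the row 5302 bases downstream. Its upstream share was 88.5% in sort 1 and 91.6% in sort 2. Iqsec1, an exchange factor for ARF GTPases, had 6730 and 6781 reads on the upstream row and 0 in both sorts on the row 93594 bases downstream. Cmip had 6107 and 6167 reads upstream, and its row 92151 bases downstream had 0 and 84. In these 4 genes the same row led in both sorts, with at least 88.5% of the reads.

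Other upstream-led genes with many reads were more evenly divided. Sptbn1, a spectrin of the membrane skeleton, had 7025 (79.4%) and 6518 (77.2%) reads upstream. Hmha1 had 5123 (72.8%) and 3745 (60%) upstream, with 1917 and 2493 on the row 3003 bases downstream. For Jmjd1c, which encodes a protein of the JmjC family, the upstream row had 4931 and 5351 reads, and the row 58492 bases downstream had 4307 and 4796. Its upstream share was 53.4% (52.4 to 54.4) and 52.7% (51.8 to 53.7), so both sorts showed a near even division. Arap3 and Arhgap25, both regulators of small GTPases, differed between the sorts. Arap3 had 5466 and 2678 reads upstream against 959 and 2678 downstream, and Arhgap25 had 3949 and 6079 upstream against 2067 and 0.

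Among the genes led from downstream was Ptpn6 (chromosome 6, 124720718 to 124738709, minus strand), the tyrosine phosphatase of white blood cells known for an upstream promoter used in epithelium and a downstream one used in blood cells. Its upstream row had 0 reads in both sorts, and its row 5564 bases downstream had 2478 and 1667. Taken over all reads of the gene, a count of 0 allows an upstream share of up to 0.121% in sort 1 and 0.180% in sort 2. This limit is too low, since only 216 of the 2226 exonic bases of the upstream row are its own. The coding sequence was 1791 bases from the upstream start and 1785 from the downstream start.

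The tropomyosins Tpm1 and Tpm3, whose internal promoters give the short cytoskeletal forms, also had 0 reads on the upstream row in both sorts. Tpm3 (chromosome 3, 90072651 to 90100902, plus strand) had 3171 and 2554 reads on the row 6870 bases downstream. Tpm1 (chromosome 9, 67022593 to 67049213, minus strand) had 361 and 310 on the row 5342 bases downstream. The transcripts from the downstream starts had a coding sequence of 744 bases in both genes, against 855 for Tpm3 and 852 for Tpm1 from upstream. Rassf1 (chromosome 9, 107551555 to 107562267, plus strand), with an upstream start for its longer A form and a downstream start for its C form, had 146 and 158 reads downstream and 0 upstream. At these totals the same limit is 2.05% and 1.90% for upstream Rassf1. It too is low, since 403 of the 1787 exonic bases of that row are its own. Rgs3, a regulator of G-protein signalling, had 0 reads upstream and 173 and 162 on the row 59825 bases away.

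The downstream-led genes with most reads included Nin, which encodes the centrosomal protein ninein, with 9280 and 9863 reads on the row 9071 bases downstream. That row held 87.9% in both sorts. Lrrfip1 had 8823 (94.8%) and 8355 (95%) on its downstream row, 54717 bases from the upstream one. Ywhaz, an adaptor of the 14-3-3 family, had 11742 (95.2%) and 14265 (97.9%) on the last of its 3 rows. Mbnl1, a splicing regulator, had 6115 (85.3%) and 8190 (86.6%), and the corepressor gene Ncor1 had 8427 (90.9%) and 8726 (83.3%). Ddx17, an RNA helicase, had 6940 (76.4%) and 6329 (79.6%). In Sla, which encodes a Src-like adaptor, the upstream row had 2451 reads in sort 1 and 0 in sort 2, and the downstream row had 9878 and 11622. The downstream row led in all of these in both sorts. In Nin, Ncor1 and Ddx17 the rows also end at different 3′ ends, and by RPKM the downstream row held 83.5% in both sorts for Nin, 78.4% and 64.4% for Ncor1, and 69.1% and 73.0% for Ddx17.

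Tnrc6b and Fam65b leaned less to the downstream row. Tnrc6b, of the miRNA silencing machinery, had 5783 (55.7%) and 7216 (65.4%) reads on it. Fam65b had 5254 (66.4%) and 5017 (71.6%), and per transcript length, by RPKM, its downstream row held 52.6% and 58.6%. The Fam65b rows also end at different 3′ ends. Whsc1l1, a histone methyltransferase gene, had 4512 (55.9%) and 4933 (53.7%) on its downstream row. Its RPKM share turned the order: the upstream row, whose transcript is shorter and ends at another 3′ end, held 68.4% and 70.2%.

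**Figure D2:**
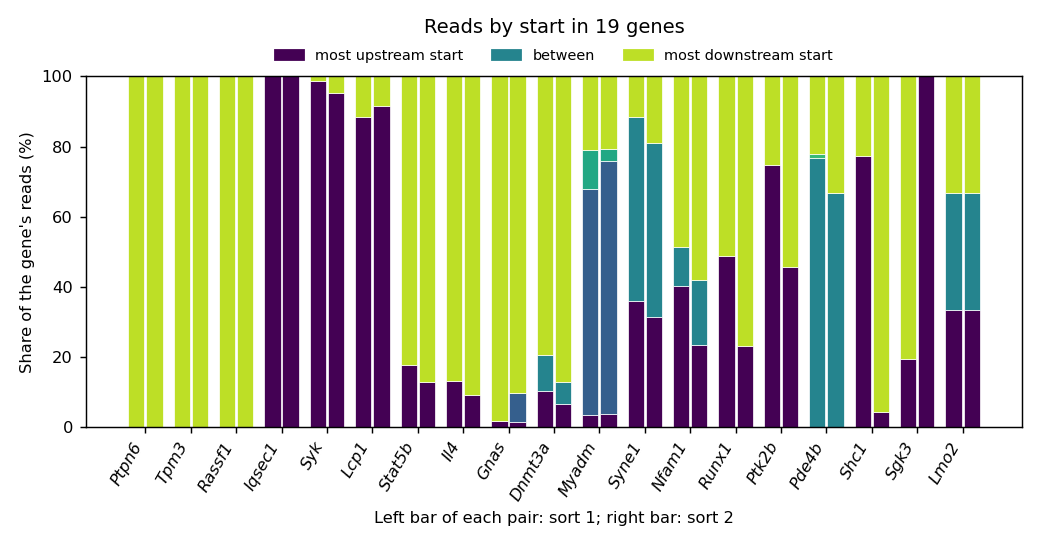
Percent of each gene's reads (y axis) on each of its rows in named genes (x axis), with the left bar for sort 1 and the right bar for sort 2, stacked from the most upstream start (dark) to the most downstream (light). Ptpn6, Tpm3 and Rassf1 stand at 100% downstream in both sorts, while the Shc1 downstream share is 22.6% in sort 1 and 95.7% in sort 2.

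Some genes with many reads had no row above 75% in either sort. Since the counts are partly an estimated division, this does not by itself show that several starts were used together. Syne1 (chromosome 10, 5020196 to 5550692, minus strand), which encodes nesprin proteins that link the nucleus to the cytoskeleton, had the most reads of the 439 genes and the widest spacing, 481629 bases. Its 3 rows held 21237, 30900 and 6818 reads in sort 1, from upstream to downstream, and 20479, 32276 and 12459 in sort 2. The middle row led with 52.4% and 49.5% of reads. The upstream row overlaps no other, so its reads needed no division with them. By RPKM the upstream row held 41.7% and 34.6%, and the middle row 39.0% and 35.0%, so the order of those rows rests on the scale. Myadm, a myeloid membrane protein gene, had 21651 (64.6%) and 25310 (72.2%) reads on the second of its 4 rows, 1517 bases from the most upstream. Of that second row 41 exonic bases belong to it alone. Its start is at base 3290555 and that of the third row, with 3702 and 1215 reads, at 3290556. The division between those 2 rows therefore does not tell separate starts apart. Sh3kbp1 had 7568 (56.9%) and 9502 (67.1%) on the middle of 3 rows.

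Nfam1, an immune receptor with a signalling motif for immune activation, had 2620, 718 and 3173 reads on its 3 rows in sort 1 and 1286, 1019 and 3212 in sort 2. The downstream row led in both sorts, with 48.7% and 58.2%. Add3, of the adducin family, had 2669 and 3130 reads upstream and 2900 and 2564 on the row 2313 bases away, so a different row led in each sort.

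A list of 93 genes with textbook alternative promoters held 43 genes with several rows, of which 26 were among the 439. The upstream row led in 7, the downstream row in 15, a middle row in 3, and 1 was tied. Their median leading share was 67.7%, against 82.1% for all 439, and their median difference between sorts was 9.44 points, against 6.92. The list was put together with earlier results of these data known, so these counts stand as a description. The same row led in both sorts in 15 of the 26, a different row in 8, and in Gfi1, Lmo2 and Tcf4 rows were tied in at least 1 sort. In 5 of the 15 the reads were on 1 row alone in both sorts: Pde4a, Rassf1, Rgs3, Tpm1 and Tpm3. Pde4a, a cAMP phosphodiesterase, was the one of these with its reads upstream, 189 and 212.

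Some genes of that list encode regulators of transcription and DNA methylation. Runx1 (chromosome 16, 92601466 to 92826066, minus strand), a haematopoietic transcription factor with a distal and a proximal promoter, had 345 and 208 reads on the distal row and 363 and 696 on the proximal row 128738 bases downstream. The proximal share was 51.3% (47.6 to 54.9) in sort 1 and 77.0% (74.1 to 79.6) in sort 2, and by RPKM 45.9% and 73.0%. Both Runx1 starts thus had reads in both sorts. Between these 2 libraries their balance differed beyond counting error (adjusted p = 1.8e-26, Fisher's exact test over reads), which is no test of replicate spread. Runx2 had 259 and 1813 reads on the most upstream of 4 rows and 1412 and 989 on the most downstream. In Foxp1 the upstream row had 1111 (66.9%) and 835 (44.4%), and the row 407047 bases downstream had 218 (13.1%) and 811 (43.1%).

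Gfi1 (chromosome 5, 107716655 to 107725805, minus strand), a zinc-finger repressor of myeloid development, had 111 reads on each of its 2 rows in sort 1, and 115 upstream and 248 downstream in sort 2. Dnmt3a (chromosome 12, 3806980 to 3914443, plus strand), a DNA methyltransferase with a short form from an internal start, had 1873 (79.5%) and 1692 (87.2%) on the downstream row, 84764 bases from the most upstream. Its coding sequence was 2067 bases there and 2724 from both upstream rows, which had 241 reads each in sort 1 and 124 each in sort 2. For Dnmt1, the maintenance methyltransferase gene, the rows 6909 and 7265 bases from the most upstream had 712 and 869 reads in sort 1 and 730 and 626 in sort 2, and the upstream row had 0 and 7. Nfatc1, a calcium-dependent transcription factor, had 2968 (99.3%) and 2086 (100%) downstream.

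Signalling and structural genes of the list gave both patterns. Gnas (chromosome 2, 174284320 to 174346742, plus strand), an imprinted locus whose most downstream promoter of these gives the stimulatory G-protein subunit, had 2640 (98.2%) and 3066 (90.3%) reads on the most downstream row. Its row 13539 bases from the most upstream had 2 and 279. Pde4b, another phosphodiesterase, had 2918 (76.6%) and 2792 (66.7%) on a middle row, with 3 reads in each sort on the most upstream, 315318 bases away. Ptk2b, a focal-adhesion family kinase, had 2690 (74.8%) and 1301 (45.5%) upstream, against 908 and 1559 on the row 67500 bases downstream. Only 4 exonic bases belong to that downstream row alone, so its reads are almost wholly an estimated division. Gsn, which encodes the actin-severing protein gelsolin, had 980 (79.9%) and 835 (100%) on its upstream row. Plec, the cytolinker plectin, had its reads mainly on both ends of its 11 rows, with 1245 and 1228 on the most upstream and 2220 and 784 on the most downstream. Epb4.1, of the red-cell membrane skeleton, had 1791 (84.4%) and 1631 (90.8%) upstream. Il1rn, the interleukin-1 receptor antagonist, had 1015 (53.9%) and 1745 (73.7%) on the row 8511 bases from the most upstream, and 828 and 622 on its close neighbour at 8431 bases, which has 22 exonic bases of its own. Prkacb, a catalytic subunit of the cAMP-dependent kinase, had 21 and 1029 reads on its most upstream row and 958 and 112 on the next. Arhgef7 had 56 and 213 upstream and 365 and 207 downstream, on rows that also end at different 3′ ends. Tcf4, a basic helix-loop-helix factor, had 119 and 81 upstream and 0 and 81 downstream.

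A list of 107 myeloid and eosinophil genes held 13 with several rows and 7 among the 439, namely Gfi1, Il4, Ptpn6, Runx1, Stat5a, Stat5b and Syk. The upstream row led in Syk and Stat5a and the downstream row in the other 5. Stat5a and Stat5b transmit interleukin-5 signals, a main survival cue of eosinophils. Stat5a had 363 and 271 reads on its upstream row and 0 in both sorts on the other, which has 0 exonic bases of its own, so its count says nothing of that start. Stat5b had 160 and 113 upstream and 754 (82.5%) and 774 (87.3%) on the row 28015 bases downstream. Il4, a type 2 cytokine gene, had 43 and 38 reads upstream and 288 (87.0%) and 376 (90.8%) on a row 1327 bases downstream, whose RefSeq transcript is a non-coding one. The 7 genes had a median leading share of 88.9%, and their median difference between sorts was 3.81 points.

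The distance between the starts went with small differences in the division. With starts 1000 to 5000 bases apart, the upstream row led in 44 of 115 genes (38.3%), and at 5000 to 20000 bases in 45 of 116 (38.8%). At 20000 to 100000 bases it led in 82 of 168 (48.8%), and at 100000 to 500000 in 18 of 40 (45%). The median leading share in these bins was 78.6, 84.6, 84.2 and 78.1%, in that order. The median difference between the sorts was 7.57, 7.22, 5.20 and 10.6 points. No steady trend with distance was seen in either measure. Among the widest spaced genes, Elmo1, an activator of Rac signalling with starts 382483 bases apart, had 89.7% and 86.4% on its upstream row, and Dip2b, 115732 bases, had 100% and 99.3%. Nedd9 had 97.5% and 73.8% upstream. These were picked after their values were seen.

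At the bounds of the rule, Rpl34 (1004 bases) and Syne1 (481629 bases) lay just inside the distance limits, and Lcorl (988) and Celf2 (511202) just outside. Aste1 with 102 and 100 reads was just inside the read minimum, and Fis1 with 356 and 98 was just outside.

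The sorts gave close shares in many genes and far ones in many others. The leading share differed by a median of 6.92 points (quartiles 0.983 and 21.5), against 7.39 over all 771 genes with several rows. It differed by under 5 points in 198 genes (45.1%). Fisher's exact test of the leading row against the other rows between sorts, with Benjamini-Hochberg adjustment over the 771 genes, called 185 of the 439 (42.1%) at an adjusted p under 0.05 and a difference of at least 10 points. Over all 771 genes 332 (43.1%) were called, so the count is near the background. The leading share was higher in sort 2 in 84 of the called genes and higher in sort 1 in 101. This test sets 2 libraries of 1 group against each other and counts sampling of reads only. PCR copies and an estimated division are not in it, so its p-values and the Wilson intervals are too narrow.

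The upstream share leaned to neither sort, being higher in sort 2 in 171 genes, higher in sort 1 in 179 and equal in 89. Across genes, which are not independent replicates, Pearson's r between the sorts was 0.79 over the 439 genes and 0.90 over the 162 with at least 1000 reads in both. The same row led in both sorts in 337 genes (76.8%) and a different row in 61 (13.9%), and in 41 (9.34%) rows were tied for the lead in at least 1 sort. Over the 771 genes a different row led in 96 (12.5%). Among the 162 genes with at least 1000 reads a different row led in 18 and 6 had a tie. In 64 genes (14.6%) a row had 0 reads in 1 sort and at least 20% of the gene's reads in the other, against 101 of the 771 (13.1%).

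**Figure D3:**
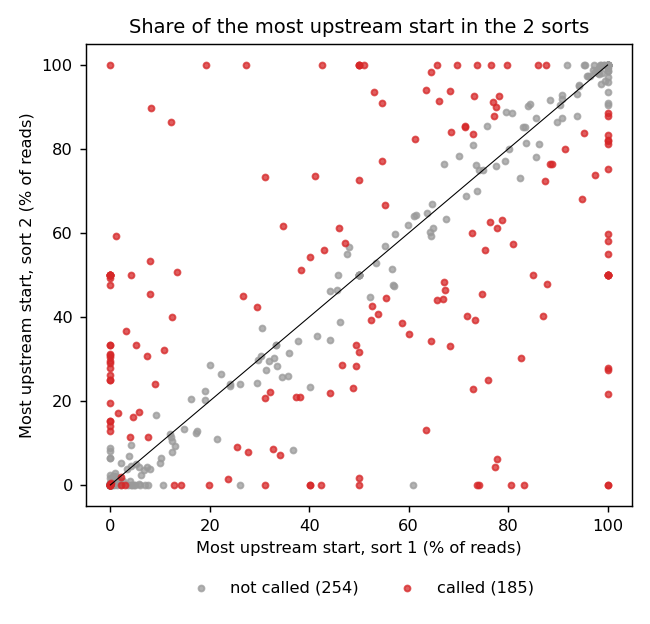
Percent of the gene's reads on the most upstream row in sort 1 (x axis) and sort 2 (y axis), 1 point for each of the 439 genes, with the 185 genes called by Fisher's exact test in red and the line of equal shares. Many points lie near the corners on the line, and called genes lie on both sides of it.

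The 10 genes with the largest difference, among those with at least 500 reads, had leading shares 56.8 to 99.1 points apart. In Shc1, a signalling adaptor with a longer and a shorter coding form, the upstream row had 721 reads in sort 1 and 31 in sort 2. The row 3070 bases downstream had 210 and 689. The downstream row, whose coding sequence is 1737 bases against 1407 upstream, held 22.6% (20 to 25.4) and 95.7% (94.0 to 97.0). With 1 library for each sort, the difference has no replicate check. Sgk3, a kinase gene, had 102 and 705 reads upstream and 426 and 0 downstream, with a coding sequence of 1488 bases from both starts. Cnot7, a deadenylase subunit, had 418 and 0 upstream and 84 and 565 downstream. Myo1c, an unconventional myosin, had 561 and 3 reads on its downstream row and 1 and 509 on its middle row.

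Of the other genes in that set, Fam53b had 667 and 0 reads upstream, and Zfp710 had 501 and 885 upstream and 675 and 0 downstream. Ikbkg, the regulatory subunit of the NF-kappaB-activating kinase, had 574 and 102 on one middle row. Its most downstream row had 0 and 448. In 7 of the 10 genes a row went from 0 reads in 1 sort to at least 20% in the other. The 10 were chosen for the size of such differences, so that count is no finding. Phactr2, Phf17 and Nfe2l1, also in the set, held identical counts on several rows in at least 1 sort. The totals of these genes included 502 and 565 reads for Cnot7 and 827 and 501 for Fam53b.

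Agreement went with read number. With 100 to 300 mean reads the median difference was 12.4 points and 56 of 103 genes (54.4%) were called. With 300 to 1000 it was 7.39 points and 75 of 163 (46.0%). With 1000 to 3000 it was 5.20 points and 40 of 113 (35.4%), and with 3000 or more it was 3.81 points and 14 of 60 (23.3%). Genes with the same count on several rows, described below, numbered 18, 18, 9 and 2 in these bins. Their part in the trend was not tested. The largest difference in the last bin was 35.1 points, in Arap3, from 85.1% to 50%. The 50% in sort 2 comes from identical counts on both rows.

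**Figure D4:**
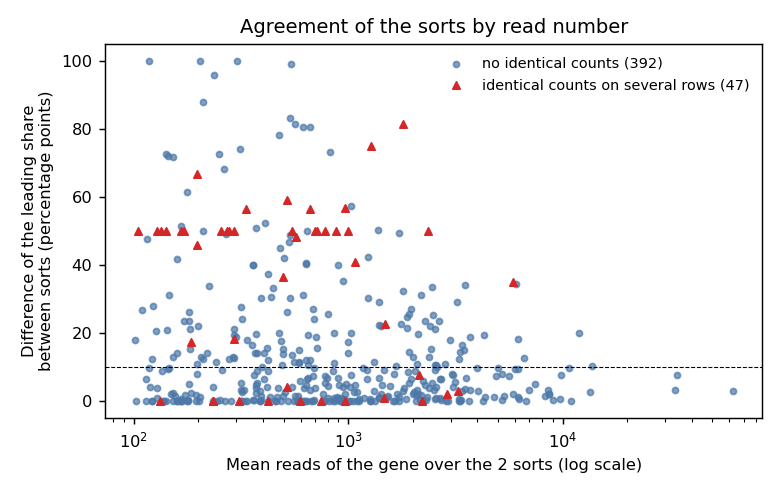
Difference of the leading share between the sorts in percentage points (y axis) by the mean reads of the gene (x axis, log scale), 1 point per gene, with triangles for the 47 genes that had identical counts on several rows and a dashed line at 10 points. The spread narrows to the right, from a median of 12.4 points at 100 to 300 reads to 3.81 at 3000 or more.

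Some divisions were even to the read. In 47 genes (10.7%) at least 2 rows held exactly the same count, of 10 reads or more, in at least 1 sort, against 106 of the 771 (13.7%). This was so in 23 genes in sort 1, in 39 in sort 2, and in both in 15, among them Dnmt3a, Furin, Lmo2, Per1 and Prkaca. Lmo2, a haematopoietic cofactor, had 241 reads on each of its 3 rows in sort 1 and 255 on each in sort 2. In Phf17 a row had 1077 reads in sort 1 and the other 3 had 0, and in sort 2 each of the 4 had 366. Such counts do not say which start was used. Of these 47 genes 32 were called (68.1%), with a median difference of 50 points. Of the other 392 genes 153 were called (39.0%), with a median of 6.38 points. Arap3, Gfi1 and Tcf4 are also among the 47.

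The length that sets a row apart from the other rows of its gene was available for 281 of the 439 genes (64.0%), whose rows all matched GENCODE M21 transcripts, so this holds for the matched genes only. The smallest exonic length that belongs to 1 row alone had a median of 101 bases in the 33 matched genes with identical counts and 152.5 bases in the 248 without. With under 50 such bases, 6 of 28 genes (21.4%) had identical counts. In the bins of middle length 18 of 117 (15.4%) and 9 of 99 (9.09%) had them, and in the 37 genes with the longest such stretches 0 had them. The median difference between sorts did not fall steadily with this length. It was 5.22 points in the 28 genes with the shortest stretches, 7.98 and 6.53 in the middle bins, and 2.13 in the 37 with the longest.

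The coding start could be compared between the leading row and the most read other row in 289 genes (65.8%). The first codon was the same in 115 of them (39.8%) and different in 174 (60.2%). Where it differed, the leading row had the longer coding sequence in 105 genes (60.3%), the shorter in 67 and an equal one in 2. The median size of that difference was 232.5 bases. The leading row was set by reads, which are not scaled by transcript length, and these counts were not made by RPKM. Tpm1, Tpm3, Rassf1 and Dnmt3a above belong to those led by the shorter coding form.

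CpG content differed between leading and other starts. RefSeq windows of 300 bases, 250 before the start to 50 after it, were matched for 697 of the 1056 rows (66.0%). The CpG ratio, observed over expected from base composition, had a median of 0.583 at these starts and 0.383 over all 32817 windows in the table. Those windows were not limited by reads, whereas these starts belong to genes chosen by reads. The part of that choice in the gap was not tested. In 235 genes (53.5%) the leading start could be compared with the most read other start at least 1000 bases away. The leading start had the higher ratio in 146 of them (62.1%), with medians of 0.653 and 0.449. In the 81 genes with a leading share of at least 90% in both sorts it was higher in 60 (74.1%), with medians of 0.770 and 0.410. In the other 154 it was higher in 86 (55.8%).

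Position and CpG content moved together in these pairs. Where the upstream start led, it had the higher ratio in 90 of 120 genes (75%), with medians of 0.719 and 0.327. Where the downstream start led, it had the higher ratio in 56 of 115 (48.7%), with medians of 0.534 and 0.606. Whichever led, the upstream start of the pair had the higher ratio in 149 (63.4%). The starts printed above gave 0.800 and 0.123 for Syk, 0.613 and 0.278 for Lcp1, and 0.148 and 0.651 for Tpm3, upstream before downstream, so the leading start had the higher ratio in these 3. The downstream start, which led over both sorts together, had the lower ratio in Shc1, 0.188 against 0.614, and in Gfi1, 0.412 against 0.641. In sort 1 alone the upstream row led in Shc1, and the Gfi1 rows were tied. Rassf1 had 0.804 and 0.823, nearly equal, although 1 start had all the reads.

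**Figure D5:**
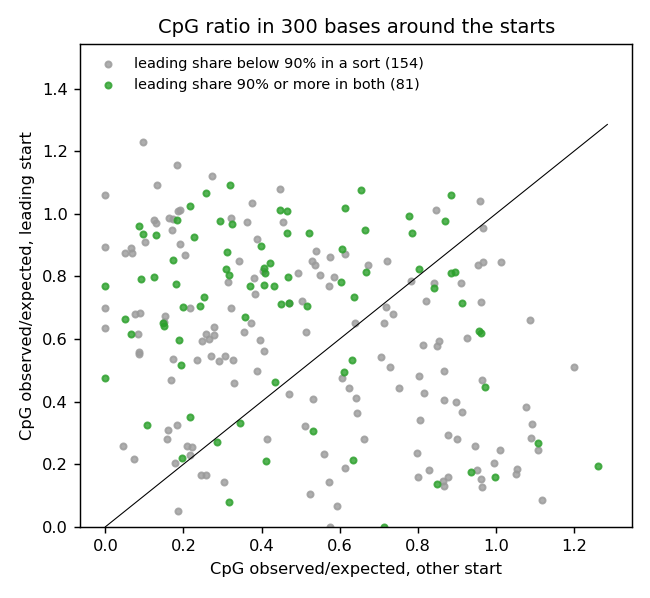
CpG observed over expected in 300 bases at the leading start (y axis) and at the other start (x axis), 1 point for each of 235 genes, with green for the 81 genes with a leading share of at least 90% in both sorts and the line of equal ratios. Of the green points 60 lie above the line, and of the grey points 86 of 154.

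Short motifs were searched in the same windows on both strands, none of which contains another. TATAAA was found in 56 of the 697 starts (8.03%), against 13.6% of all windows, and AGATAA, which blood-cell factors of the GATA family bind, in 57 (8.18%), against 11.2%. GAGGAAG, a motif of the ETS factor family, was found in 107 (15.4%), against 13.6%, and CACGTG in 71 (10.2%), against 7.15%. These are matches of letters and not binding sites, and the windows they are set against were not limited by reads. The upstream start of Tpm3, which had no reads, held AGATAA and GAGGAAG. The most upstream start of Nfam1, with 2620 and 1286 reads, held the same pair. The downstream start of Nfam1, which led there, held TATAAA.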

How the data were processed

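The authors deposited, for each library, a table of read counts and RPKM values for RefSeq transcripts grouped by shared start and end, with 1-based mm10 coordinates. Per the submitters' processing notes reads were aligned with STAR 2.4.0c. No source used here names the counting program or says how it treated strand. The deposited counts of some genes are identical on several rows, so they are partly estimates of a division among transcripts. Libraries were stranded (dUTP) and poly(A)-selected, per the labels' protocols.

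Each row's share of the gene's reads was computed per sort, with Wilson 95% intervals. A share of 0 was given the limit of 3 reads over the gene's total, which is too low where rows share exons. Leading shares were compared by a two-sided Fisher's exact test (scipy 1.17.1), with Benjamini-Hochberg adjustment over 771 genes. It was tried on simulated counts that held sampling of reads only. PCR copies and an estimated division were not in them, so that trial is no check of their effect. Transcript structure came from GENCODE M21 (GRCm38), matched by RefSeq accession and a 5′ end within 100 bases. The CpG comparison was planned for an mm10 genome, and RefSeq windows of GRCm38.p6 were used in its place. Named genes were the members of the alternative promoter list and, by reads, the first 10 led from upstream, led from downstream, and under 75% in both sorts, plus the 10 with the largest difference at 500 reads or more. Members of the myeloid list were added, and some named genes are not reported here. Members and lists were chosen with earlier results of these data known. With 1 library per sort, p-values measure only counting error between these libraries.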

Additional observations from a re-analysis of the deposited data

How the results depend on the processing

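With at least 500 reads, with no minimum, and with 1 transcript per row, the number of genes was 260, 737 and 261 in place of 439. The percent led from upstream (43.1%) became 45, 38.1 and 40.6%, and 39.9 to 42.6% with 1 sort left out. The median leading share (82.1%) was 79.7% with no minimum, 81.7% and 83.9% with starts at least 500 and 5000 bases apart, 82.6% with starts within 100 bases summed, 81.4% with 1 transcript per row, 80.4% by RPKM, and 87.3 to 87.6% with 1 sort left out. Leaving out genes with identical counts, an alternative chosen after seeing the data, gave 84.9%. The share of genes with 1 row at 90% or more in both sorts (33.0%) became 36.7% without those genes and 45.3 to 47.4% in 1 sort alone. The median difference between sorts (6.92 points) was 6.89, 5.76 and 5.25 points with at least 50, at least 500 and no minimum of reads, 7.70 and 6.82 with starts at least 500 and 5000 bases apart, 6.75 with starts summed, 7.57 with 1 transcript per row, 7.25 by RPKM and 6.38 without identical counts. The number of genes called by Fisher's exact test (185) was 93 with at least 500 reads, 113 with 1 transcript per row, 118 at 20 points or more and 293 by adjusted p alone. The percent with the higher CpG ratio at the leading start (62.1%) was 59.8, 59.7 and 57.2% with at least 50, at least 500 and no minimum of reads, 59.1% with starts at least 500 bases apart, 60.9% by RPKM, 60% by GC percent, and 61.3 to 62.7% with 1 sort left out. Apart from the numbers of genes that each setting leaves, the cause was not tested. By RPKM another row led in 5 of the 63 named genes, Dnmt1, Fam53b, Nfe2l1, Syne1 and Whsc1l1. No paired analysis was possible because the libraries form 1 group. Windows of 500 bases before and after the start were not run, since no genome sequence was used here. Shares within a library do not depend on scaling between libraries.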

Other observations

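In a few genes a start between the outermost ones took most reads in both sorts. These were picked after their values were seen. Gcnt1, a glycosyltransferase gene, had 3317 reads in sort 1 and 3243 in sort 2, all on the middle of its 3 rows. Numb, a regulator of Notch signalling, had 1847 (81.0%) and 1544 (78.9%) reads on its middle row. Lims1, a focal-adhesion adaptor, had 3824 (68.8%) and 5904 (87.0%). Fgd4, an exchange factor for Cdc42, had 1928 (55.7%) and 2399 (52.6%).

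In other genes all or nearly all reads were on an outer row in both sorts. Galnt6, another glycosyltransferase gene, had 4144 and 3144 reads on its upstream row, and Rnf144b, a ubiquitin ligase gene, had 4690 and 3843 on its downstream row. Atxn7l1, whose rows do not overlap, had 2075 (99.1%) and 2525 (97.9%) reads downstream.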
